A study of Mus musculus with 2 samples.

Results

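The AP-1 and immediate early transcription factors *Fos*, *Fosb*, *Fosl1*, *Fosl2*, *Jun*, *Junb*, *Jund*, *Egr1*, *Atf3* and *Ier2* were read on 2 arrays, 1 labelled as ovaries of wild-type (WT) C57BL/6 females and 1 as ovaries of homozygous (HOM) Y123F females. These 10 genes were listed by name, and all probes with their symbols in the array annotation were taken, which gave 12 of 45281 probes and 9 of 19057 named genes, since *Fosl1* had no named probe. The genes were chosen by name, with *Junb* selected on its signal on these 2 arrays, which was already known to be higher for HOM, so its values are a description. The Y123F mice carried a knock-in leptin receptor in which Tyr985, Tyr1077 and Tyr1138 of the long form, LepRb, are phenylalanine, on a C57BL/6 background, and the WT mice came from the same litters. The allele is in the germline and is not limited to one organ. The animals were 12 weeks old and the RNA of several mice was pooled for each genotype, with the number of mice given differently in the methods and the supplement. Each genotype was 1 pool on 1 array, so there was no replicate error and no test, and a ratio describes these 2 pools.

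AP-1 is a dimer of basic leucine zipper (bZIP) proteins, most often a Jun protein with a Fos or ATF protein. Most of these genes belong to the immediate early class, whose transcription starts within minutes of a growth factor, cytokine, calcium or stress signal and needs no new protein synthesis, while *Jund* is more steadily expressed. In the ovary and uterus AP-1 and EGR1 are known as mediators of gonadotropin and estrogen signals. The tyrosines changed in LepRb are the docking sites through which the receptor reaches SHP2 and the ERK pathway, STAT5 and STAT3.

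The bases before the start of a gene can hold short elements through which such signals act. The bases before 4 starts are shown because *Junb* stood apart from its relative *Jun*, its partner *Fos* and the stress-induced *Atf3* in signal. Of the 10 genes, 7 had an entry in the RefSeq promoter table (GRCm38.p6), and *Fosl1*, *Egr1* and *Ier2* were not among them. Each sequence is the 250 bases before the annotated start, 5′ to 3′ in the direction of the gene. Capitals mark the core of the cAMP response element (CRE core, TGACG, bound by CREB and ATF proteins), the variant AP-1 element TGACATCA and the CCAAT box, each searched on both strands.
*Junb*, chr8:84978749-84978998, minus strand: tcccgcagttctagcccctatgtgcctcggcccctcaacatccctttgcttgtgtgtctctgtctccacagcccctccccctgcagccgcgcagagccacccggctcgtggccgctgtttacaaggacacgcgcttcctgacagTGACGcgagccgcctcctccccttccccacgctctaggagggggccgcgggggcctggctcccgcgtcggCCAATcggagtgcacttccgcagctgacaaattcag
*Jun*, chr4:95052223-95052472, minus strand: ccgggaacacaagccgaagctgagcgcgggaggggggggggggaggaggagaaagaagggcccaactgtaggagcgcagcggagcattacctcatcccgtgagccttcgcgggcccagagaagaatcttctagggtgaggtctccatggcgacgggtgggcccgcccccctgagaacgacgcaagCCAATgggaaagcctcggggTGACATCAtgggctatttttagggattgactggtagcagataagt
*Fos*, chr12:85473640-85473889, plus strand: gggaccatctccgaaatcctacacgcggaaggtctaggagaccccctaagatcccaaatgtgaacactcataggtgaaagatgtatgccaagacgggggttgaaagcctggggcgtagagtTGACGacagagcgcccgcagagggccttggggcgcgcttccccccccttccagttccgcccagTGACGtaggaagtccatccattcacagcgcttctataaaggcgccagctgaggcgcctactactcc
*Atf3*, chr1:191183334-191183583, minus strand: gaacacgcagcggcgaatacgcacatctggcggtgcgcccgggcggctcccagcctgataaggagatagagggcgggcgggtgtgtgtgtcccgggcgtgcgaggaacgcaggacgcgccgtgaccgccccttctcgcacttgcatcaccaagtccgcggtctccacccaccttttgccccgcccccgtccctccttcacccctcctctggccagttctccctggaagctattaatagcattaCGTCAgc
The CRE core was found before *Junb* at -106 to -102, before *Fos* at -129 to -125 and at -66 to -62, before *Atf3* on the opposite strand at -7 to -3, and before *Fosb* at -60 to -56, counted from the base before the start as -1. It is in 17.8% of the 32851 promoter windows of the same length. The TGACATCA element was found before *Jun* alone among the 7 genes, at -45 to -38, and is in 2.93% of windows. The CCAAT box was found before *Junb* and *Jun* and is in 33.8% of windows. The 9-base EGR site GCGGGGGCG was found before *Fosl2* and *Fosb* and is in 2.57% of windows. No window of the 7 genes held the full CRE TGACGTCA (1.55% of windows), the AP-1 site TGACTCA (4.46%), the STAT site TTCNNNGAA (7.02%) or the CArG box of serum response factor (1.47%). The CRE core overlaps the full CRE in its letters, and a match is a description of the sequence alone. Bases more than 250 before a start were not searched, so an absent match holds for these windows only.

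The values below are background-subtracted signals in the arbitrary units of the scanner, and a probe was called detected at a detection p-value below 0.01. Log2 HOM/WT was taken after background correction, addition of 16 and quantile normalization, and the addition of 16 pulls dim probes toward 0. A gene is represented by its brightest probe, and past 2-fold means a log2 ratio at or beyond 1 in either direction. Of the 9 measured genes 7 were detected on at least 1 array, 6 of them on both, and 2 on neither. By the same rule, 9817 of all 19057 named genes were detected on at least 1 array and 8651 on both. Of 12 probes 7 were detected. Of all probes, 32.9% were detected for WT and 34.4% for HOM. Over 3225 genes with several detected probes, probes for the same gene gave log2 ratios with an SD of 0.33, called the probe spread here. All these probes were read on the same 2 arrays, so this spread holds no error between arrays or pools.

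**Figure D1:**
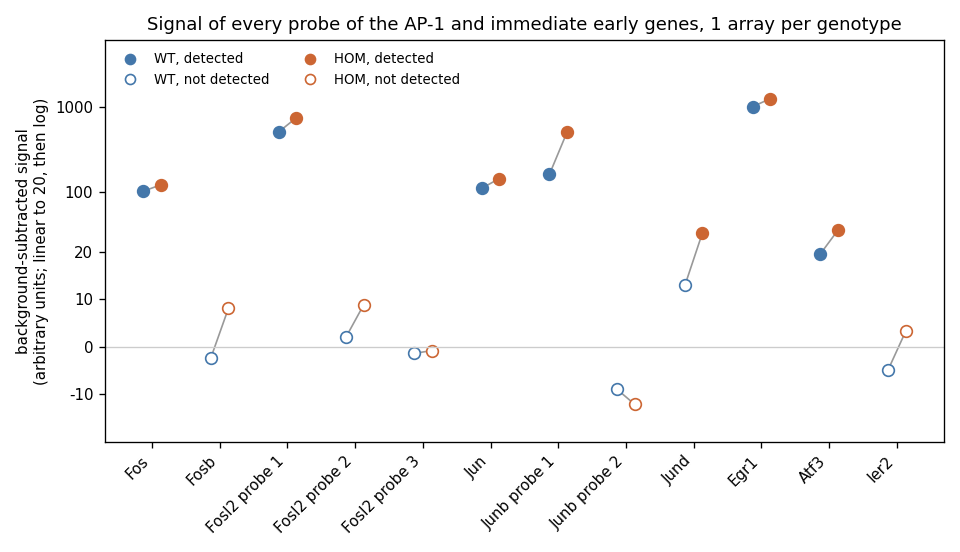
Background-subtracted signal (arbitrary units, linear up to 20 and logarithmic above) of the 12 probes on the WT array and the HOM array, with filled points for detected and open points for not detected, and no error bars because there is 1 array per genotype. *Junb* probe 1 goes from 161 to 503, while *Egr1*, *Fos* and *Jun* lie close to level and the probes of *Fosb* and *Ier2* stay below detection.

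The labelled organ was borne out by few markers. Of 22 measured marker genes of granulosa cells, theca cells and oocytes, 3 were detected on both arrays. Of 13 uterine markers 9 were, and of 8 smooth muscle markers 7. Among all 19057 named genes, 8651 were detected on both arrays. The 3 ovarian markers were *Inha* of granulosa cells (21.6 on WT and 49.3 on HOM), *Insl3* of theca cells (52.3 and 76.4) and *Gdf9* of oocytes (21.3 and 34.7). On WT, *Inha* and *Gdf9* were near the dimmest detected signal of 15.1. On at least 1 array, 5 of the 22 ovarian markers were detected. Among the undetected, *Star*, which carries cholesterol into mitochondria for steroid synthesis, had signals of 1.44 and 1.72. The levels given here are therefore those of the RNA on the arrays as labelled, and fewer cells of a type cannot be told apart from less RNA per cell.

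*Junb* encodes a Jun protein that pairs with Fos proteins and can restrain the growth-promoting action of c-Jun. Its signal was 161 for WT and 503 for HOM, both detected, a ratio of 3.12 between the deposited signals. After normalization HOM/WT was 2.40 (log2 1.26). This ranked 7 from the highest among 9817 detected genes. It was the only one of the 7 detected members past 2-fold under this normalization, where 41 of all detected genes were higher (0.418%) and 146 were lower (1.49%). The list was partly drawn up from this contrast, so the share of members is not read against these percentages. The next member below the 2-fold line with detection on both arrays was *Atf3*, at a log2 ratio of 0.39.

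The value of *Junb* rests on 1 probe, the one that matches the reference transcript. Its second probe, annotated to a separate cDNA clone, had signals of -8.99 and -12.2, below zero on both arrays and not detected, so it gives no second reading of the gene. Under 6 normalizations log2 HOM/WT of *Junb* lay between 1.13 and 1.55, past 2-fold in each. The 6 are not separate checks. The authors' values nearly repeat those without background correction (1.34 in both), and median scaling differs from no scaling by a constant per array. Relative to the median of all detected genes, which ranged from 0.03 to 0.28, *Junb* was 1.10 to 1.29 higher. Its rank from the highest was 3 with an offset of 50 and 177 without background correction or in the authors' normalized values, where 367 genes were past 2-fold higher.

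The other Jun proteins were set beside *Junb* on the same arrays. *Jun*, the c-Jun subunit that JNK kinases phosphorylate, had signals of 111 on WT and 144 on HOM, both detected. Its log2 HOM/WT was 0.06, close to the median of 0.04 over all detected genes and well within the probe spread. *Jund* had 12.9 on WT, short of detection, and 33.4 on HOM, detected. It was at least 1.43-fold higher on HOM, against the dimmest detected probe of the WT array, with no allowance for measurement error. Its log2 HOM/WT, computed against a WT signal below detection, was 0.62 and ranged from 0.32 with an offset of 50 to 1.12 in the authors' normalized values, so that whether *Jund* was past 2-fold depended on how dim signals were treated. On the log2 scale *Junb* exceeded *Jun* by 1.08 to 1.27 under the 6 normalizations, a difference that carries no test. No such difference is given for *Jund*, which has only a bound.

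The Fos family was detected in part. *Fos*, the c-Fos subunit that carries AP-1 activity soon after a stimulus, had signals of 102 on WT and 122 on HOM, both detected. Its log2 ratio was -0.05 once quantile normalized and 0.22 without scaling, so its sign depends on the scaling. Relative to the median of all detected genes *Fos* was between 0.06 and 0.11 lower under every one of the 6 normalizations, a difference smaller than the probe spread. *Fosl2*, the Fra-2 subunit, which lacks the strong activation domain of c-Fos, had 505 on WT and 738 on HOM on its brightest probe. Its log2 HOM/WT was 0.23, and 0.47 after median scaling. The other two *Fosl2* probes were not detected, with signals of 2.13 and 8.90 on the second and -1.40 and -0.826 on the third. *Fosb*, whose spliced product ΔFosB is long-lived, had -2.38 on WT and 8.08 on HOM and was not detected on either array, so no fold is given. *Fos* and *Fosl2* both stayed within 2-fold whichever of the 6 normalizations was used. *Junb* exceeded *Fos* by 1.31 and *Fosl2* by 1.03 on the log2 scale.

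The detected members outside the Fos and Jun families, *Egr1* and *Atf3*, also lay within 2-fold under all 6 normalizations. *Egr1*, a zinc finger factor induced by ERK and serum response factor, had signals of 1001 on WT and 1239 on HOM. Its log2 HOM/WT was -0.03, and 0.30 without scaling, and relative to the median of all detected genes it lay between -0.07 and 0.02. Thus *Egr1* moved with the bulk of the genes. *Atf3*, a stress-induced bZIP factor that often represses its targets, had 19.6 on WT and 35.9 on HOM, both detected. The dimmest detected probes had 15.1 on WT and 15.9 on HOM, so the WT signal was near the limit. Its log2 HOM/WT was 0.39, from 0.21 with an offset of 50 to 0.62 in the authors' normalized values. *Ier2*, a nuclear protein of the same early response, had -4.89 on WT and 3.24 on HOM and was not detected on either array. *Junb* exceeded *Egr1* by 1.29 and *Atf3* by 0.88.

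**Figure D2:**
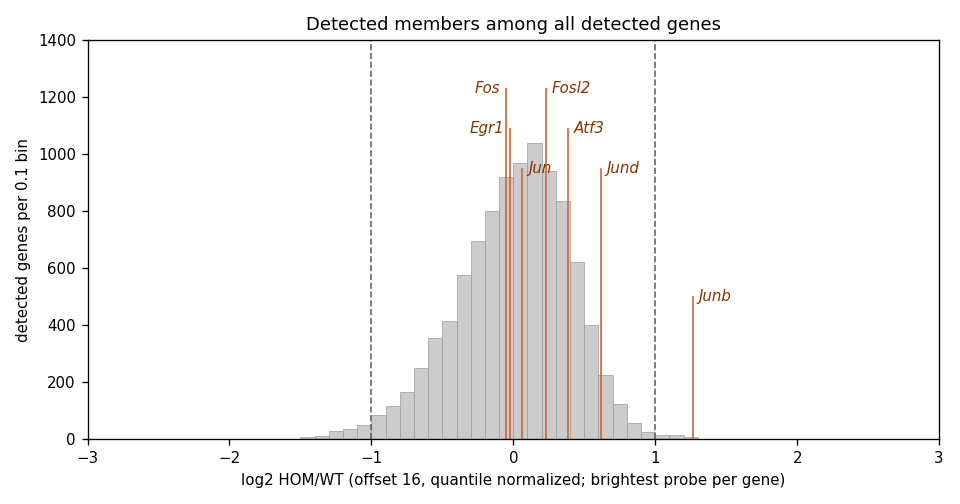
Number of detected genes per 0.1 of log2 HOM/WT (offset 16, quantile normalized), with lines at the 7 detected members and dashes at 2-fold. *Junb* lies past the dashed line at 1.26, and *Fos*, *Egr1* and *Jun* lie at -0.05, -0.03 and 0.06, near the middle of the distribution.

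The median log2 HOM/WT of the 7 detected members was 0.23, and 0.15 over the 6 detected on both arrays, beside 0.04 for all 9817 detected genes. Of the 7, 5 had a value above 0, where 53.8% of all detected genes did. At 1.5-fold *Junb* was higher and no member was lower, where 5.27% of all detected genes were higher and 8.30% lower. *Jund* also passed 1.5-fold by its computed value, but its bound of 1.43 did not. Of the 7, only *Junb* lay above the middle 95% of all detected genes, which ran from -0.89 to 0.70. The values differed between members, and the highest, *Junb*, was listed because it was already known to be higher for HOM.

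**Figure D3:**
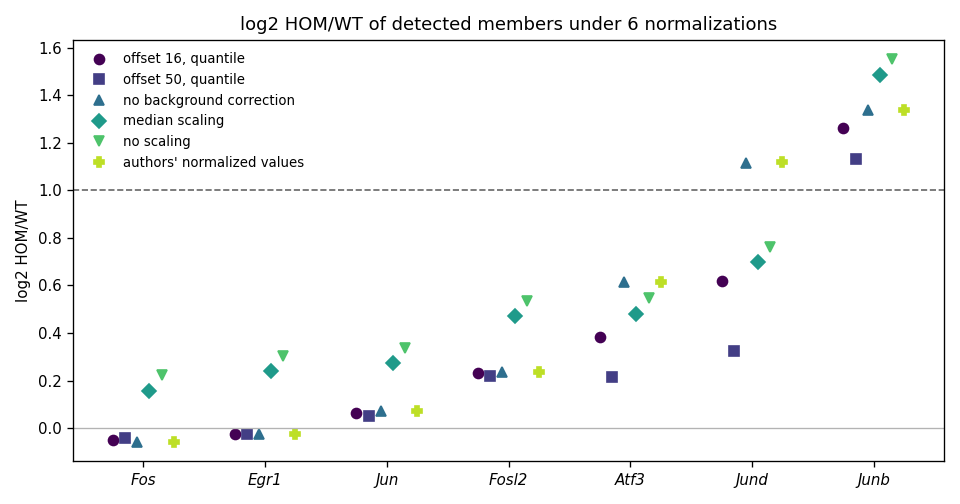
Log2 HOM/WT of the 7 detected members under 6 normalizations, with 2-fold dashed. *Junb* stays above the dashed line throughout (1.13 to 1.55), *Jund*, not detected on WT, crosses it without background correction and in the authors' values, and *Fos* and *Egr1* change sign when the arrays are median scaled or not scaled.

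Of 34 other immediate early genes 24 were detected, none past 2-fold (0.418% of all detected genes were higher and 1.49% lower). At least 1.5-fold higher were 4 (5.27% of all detected genes), and 1 was at least 1.5-fold lower (8.30%). Above 0 were 13 of the 24, near the 53.8% of all detected genes, and the median was 0.10. *Csrnp1*, a nuclear factor induced by axin and cytokines, had signals of 38.9 on WT and 103 on HOM (log2 HOM/WT 0.90). The stress kinase *Plk3* had 31.3 and 84.5 (0.89). *Ier3*, an ERK-regulated survival factor, had 477 and 950 (0.66). *Socs3*, the STAT3-induced inhibitor of cytokine receptors, had 183 and 351 (0.60). *Rhob*, a growth factor-induced small GTPase, had 705 and 527 (-0.71). *Csrnp1* and *Plk3* were past 2-fold after median scaling, at 1.06 and 1.03, and in the authors' normalized values, at 1.13 and 1.16. The other immediate early genes thus held values of both signs.

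Among bZIP partners, proteins that dimerize with Jun or Fos or bind related sites, 18 of 26 measured genes were detected, none past 2-fold. Of all detected genes, 0.418% were past 2-fold higher and 1.49% lower. At 1.5-fold 2 of the 18 were higher (5.27% of all detected genes) and none lower (8.30%). Above 0 were 13 of the 18 (53.8% of all detected genes), and the median was 0.20. *Cebpb*, which acts downstream of cytokines and in the decidua, had 399 on WT and 856 on HOM (log2 HOM/WT 0.76, and 1.01 after median scaling). *Atf7*, a dimer partner of Jun, had 152 and 303 (0.65). *Nfe2l1*, which drives proteasome genes, had 705 and 1328 (0.58). *Ddit3*, the CHOP factor of endoplasmic reticulum stress, had 98.1 and 183 (0.53), and its second detected probe gave 0.58. *Creb3*, of the endoplasmic reticulum membrane, had 262 and 443 (0.42), with 0.09 on its other detected probe.

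Of 21 measured kinases and serum response factor partners upstream of AP-1, 14 were detected. None was past 1.5-fold, where 5.27% of all detected genes were higher and 8.30% lower. The list's median was -0.03 (0.16 if median scaled). *Stat3*, which binds LepRb at Tyr1138, had signals of 500.1 on WT and 495 on HOM. Its log2 HOM/WT was -0.32 on that probe and -0.15 and 0.43 on the other detected probes, so no direction can be given. The JNK kinase *Mapk8* had 96.1 and 93.2 (-0.29, and -0.04 without scaling), and the ribosomal S6 kinase *Rps6ka3* had 46.1 and 40.0 (-0.35). *Map2k6*, which activates p38, had 21.7 and 37.9 (0.35, with 0.10 on its second probe and another probe detected on HOM only). *Map2k1*, the MEK1 kinase of the ERK pathway, was detected on the WT array only, with 16.8 and 11.9, and was at least 1.12-fold lower on HOM. A bound this close to 1 gives no clear direction.

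Among feedback inhibitors and corepressors 10 of 15 measured genes were detected, with a median of 0.11, none past 2-fold higher (0.418% of all detected genes) and 1 past 2-fold lower (1.49%). That gene was *Nab1*, a corepressor that binds EGR proteins, with 134 on WT and 64.6 on HOM (log2 HOM/WT -1.14, and -0.96 after median scaling). Its other probes detected on both arrays gave -1.67 and 0.43, which differ in sign. One more was detected on WT only, with 44.3 and 15.2, and one on HOM only, with 12.7 and 20.3. *Nab2*, its relative and itself an EGR1 target, was close to background on WT, not detected, and had 18.9 on HOM, detected, at least 1.02-fold higher. The ERK phosphatase *Dusp6* had 626 and 496 (-0.64, and -0.45 on its second detected probe). *Zfp36l1*, which speeds mRNA decay, had 4965 and 4152 (-0.44, with -1.02 and -0.36 on its other detected probes). *Dusp4*, a nuclear phosphatase of ERK and JNK, was detected on HOM only, with 9.91 and 22.7, a difference of at least 1.13-fold.

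Of 18 measured genes known as AP-1 targets 12 were detected, with a median of 0.11, 1 past 2-fold higher (0.418% of all detected genes) and 1 past 2-fold lower (1.49%). *Lif*, the cytokine needed for embryo implantation, had 18.0 on WT and 77.4 on HOM (log2 HOM/WT 1.29), and its second probe, detected on HOM only, had 14.2 and 55.2. The matrix protease *Mmp3* had 56.7 and 24.3 (-1.04, and -0.92 after median scaling), with -0.27 on its second detected probe. *Tgfb1*, the transforming growth factor, had 24.0 and 73.7 (0.98, and 1.11 after median scaling). The chemokine *Ccl5* was detected on HOM only, with 3.62 and 29.1, a difference of at least 1.31-fold. The adhesion receptor *Cd44* had 216 and 189 (-0.45). The known targets thus held values of both signs.

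**Figure D4:**
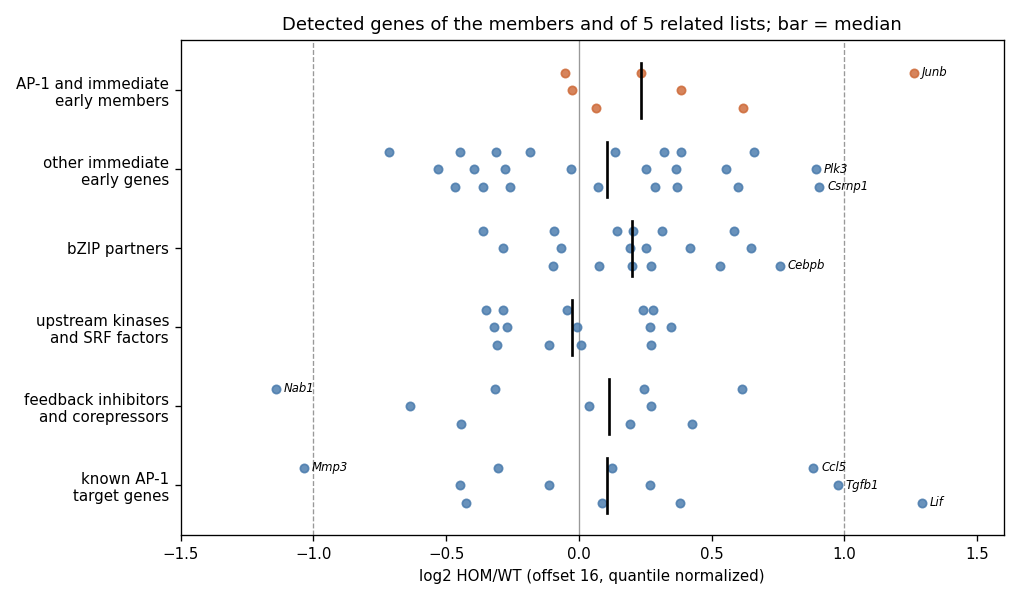
Log2 HOM/WT of the detected genes among the members and in 5 related lists (offset 16, quantile normalized), 1 point per gene by its brightest probe, with the median as a bar and 2-fold dashed. *Junb* (1.26) and *Lif* (1.29) lie past 2-fold on the right, *Nab1* (-1.14) and *Mmp3* (-1.04) on the left, and genes detected on 1 array only are included at their computed values.

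Leukocyte markers were mostly higher on the HOM array, the direction of *Junb*. Of 7 measured, 5 were detected, 4 of which had a positive log2 ratio (53.8% of all detected genes), with a median of 0.48. The summed signal of all 7 was 1990 on WT and 3891 on HOM, most of it from *Cd74* and *Lyz2*. Such sums are unscaled, and the HOM array was brighter, with a median shift of 0.28 in log2 before scaling. Sums also rose for bZIP partners (3878 and 5931) and known AP-1 targets (12445 and 16101). They fell for uterine markers (4003 and 3646) and for feedback inhibitors and corepressors (6319 and 5494). *Cd3e*, a T cell receptor subunit, had 19.9 and 72.6 (1.13), with the WT signal near the dimmest detected one of 15.1. After quantile normalization it was the 1 leukocyte marker past 2-fold higher (0.418% of all detected genes). *Cd74*, the MHC class II chaperone, had 1030 and 2212 (0.77). The lysozyme *Lyz2* had 841 and 1471 (0.48), with -0.14 on its second detected probe, the macrophage receptor *Csf1r* had 67.0 and 93.6 (0.18), the neutrophil *S100a8* had 19.7 and 20.6 (-0.11), and the pan-leukocyte *Ptprc* was not detected, with 3.88 and 11.2. Of 4 endothelial markers, all detected, 2 had a value above 0, and 7 smooth muscle markers had a median of -0.05. The 10 detected uterine markers had a median of -0.16, and 2 were past 2-fold lower (1.49% of all detected genes). These were the estrogen receptor *Esr1* (374 and 161, log2 HOM/WT -1.44) and *Hoxa11* (101 and 48.7, -1.09). After median scaling *Esr1* was at -1.21 and *Hoxa11* within 2-fold, at -0.92. Lower within 2-fold were *Wnt7a* (65.2 and 46.2, -0.59), *Hoxd10* (1941 and 1700, -0.51) and *Msx1* (-0.20, with -0.85 on its other detected probe). *Wnt4* (0.00), *Ihh* (0.03), *Foxa2* (-0.08) and *Pgr* (-0.13) lay near 0, and *Prss28* was detected on HOM only, with 9.34 and 27.5. The part of these markers in the value of *Junb* was not tested.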

How the data were processed

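Gene expression was measured in 1 pool of RNA per genotype, with 1 array for each pool on a shared Illumina MouseWG-6 v2.0 BeadChip. The HOM sample is titled C, and its description gives position B. The authors deposited background-subtracted probe intensities, not normalized between arrays, with a detection p-value per probe computed by the Illumina software from negative control beads. Per the labels the software was GenomeStudio, while the methods name BeadStudio with robust multichip analysis. A second table of deposited intensities was found to be quantile normalized without a log transform (largest difference 1.57 from the same calculation done here).

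Of 45281 probes, 34885 had 1 gene symbol in the platform annotation, 18 had several and the rest were unnamed here. Signals were corrected with normexp in limma 3.58.1 (R 4.3.3), using the detection p-values, 16 was added, and log2 values were quantile normalized. The probe with the highest mean signal over both arrays represented a gene. Where 1 array detected a probe, the fold bound divides its normalized value by the lowest detected value of the array that missed it, or by its own value on that array where higher. The procedure was tested on simulated arrays, both made from the WT signals, with known ratios set on bright probes only. That simulation held no difference between pools, so it does not cover ratios of dim genes or error between pools. Signal over background limits precision as depth does in sequencing, with a median detected signal of 89.0 on WT and 99.2 on HOM. Alternatives changed the offset, background correction, scaling, detection rule, probe summary and fold. Members and lists were chosen with earlier results of these data known. Named in the text are all members and, from each list, the 5 detected genes with the largest absolute log2 HOM/WT and any past 2-fold. Marker genes named beside *Junb* were chosen after their values were seen.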

Additional observations from a re-analysis of the deposited data

How the results depend on the processing

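The count of members past 2-fold higher was 1 (*Junb*) with an offset of 16 and quantile normalization. It was 2, *Junb* and *Jund*, without background correction, in the authors' normalized values, and at 1.5-fold, and 0 at 3-fold, with *Jund* counted by a value computed against a WT signal below detection. No member was lower under any alternative. The median over detected members lay between 0.15 and 0.54. Over all genes, 41 were higher and 146 lower (78.1% lower). With an offset of 50 these were 4 and 48 (92.3% lower), without background correction 367 and 466 (55.9%), in the authors' values 367 and 467 (56.0%), after median scaling 100 and 71 (41.5%), without scaling 154 and 50 (24.5%), at 1.5-fold 517 and 815, and at 3-fold 0 and 8. A changed detection rule or probe summary could not move a member's value, because each detected member had 1 detected probe. Those repeats are counted among the 62 member values under alternatives. Of the 62, 60 lay within 1 probe SD of the reported value, a count that the repeats raise. The 2 others were of *Jund*, 1.12 without background correction and in the authors' values. The cause was not tested. No paired analysis was possible because each genotype has 1 array, and for the same reason no replicate could be left out.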
